A study of Glycine max with 16 samples.

Results

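A set of 169 soybean probe sets without a gene name had a higher signal in stressed than in non-stressed seeds at R6, a lower one at R7, and no comparable excess at R8. A probe set is the group of array spots that together measure one transcript. The members were chosen by these differences, among the 37593 soybean probe sets of the Affymetrix Soybean Genome array, by 5 limits on group mean log2 signals. The group mean exceeded 3 in at least 1 of the 6 conditions, which 19194 probe sets passed. Stressed minus non-stressed seeds came to 1.2 or more at R6, to -1.2 or less at R7 and to below 1.2 at R8, and probe sets paired with a gene that has a name of its own were left out. Of the 169 members, 34 were paired with 1 gene that carries only a locus number (31 different genes) and 135 were paired with no gene in the annotation table used.

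All samples were whole seeds, seed coat and embryo together, of MG/BR 46 (Conquista), a cultivar susceptible to the retention of green colour in mature seed. Stressed seeds came from plants moved at R5.5 to a greenhouse with a mean day temperature of 39.5 °C and given water only once they wilted. Non-stressed seeds came from plants kept at field capacity under the conditions of their vegetative phase, which averaged 24.7 °C. There were 3 arrays each for stressed R6, R7 and R8 seeds, 3 for non-stressed R6 seeds and 2 each for non-stressed R7 and R8 seeds. Heat and drought were applied together, so that the 2 cannot be told apart. Each array held RNA of many pooled seeds, so that fewer cells of a type and less RNA per cell cannot be told apart either.

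In soybean, R6 is the stage of the full green seed, R7 the onset of physiological maturity and R8 full maturity. On the way the seed completes its reserves, breaks down its chlorophyll and dries. Transcripts that gather in this phase include those of late embryogenesis abundant proteins, which protect dry cells, while those of storage proteins decline. Stages were set by plant and pod, and after harvest seeds were selected by colour to make each sample more even in maturity. The R7 samples of this study still mixed seeds that had lost different amounts of chlorophyll. Seeds of 1 stage in the 2 environments may therefore differ in maturity as well as in stress, and these cannot be told apart here. Partly because of that mixture, the authors carried only R6 and R8 into their further array analysis. The R7 limit of the rule and the stage comparisons with R7 rest on the stage they left out.

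Array controls and tissue markers moved with the conditions in several ways. The median signal of the ribosomal RNA controls was 6.32 and 7.58 on the non-stressed R7 arrays, against 8.23 to 9.20 on the other 14. The 3′ minus 5′ difference of the actin control, which grows as RNA is broken, was 4.26 and 3.18 on those arrays and 1.56 to 2.69 on the others. The 3′ minus middle difference of the GAPDH control was 1.96 and 1.37 on the non-stressed R7 arrays and 1.12 to 1.21 on the stressed R7 arrays. On the arrays of both environments it was 0.45 to 0.80 at R6 and 1.66 to 1.81 at R8, so that it also differed between the stages compared below. Of 6 seed coat markers 5 had a probe set, and their mean signal ran from 2.11 to 2.77 on stressed R6 arrays, against 3.91 to 4.27 on non-stressed R6 arrays. The markers did not move together at R6, since SCB1, HPS and LAR1 averaged 1.84, 5.72 and 0.25 in stressed seeds, against 5.71, 9.36 and 3.06 in non-stressed seeds, while Ep averaged 4.31 in stressed and 2.14 in non-stressed seeds. ANR1 was at background in every condition. At R7 background was reached by 4 of the 5 in stressed and by 3 of the 5 in non-stressed seeds. Of 12 storage tissue markers 8 had a probe set, and their mean ran from 11.41 to 11.65 on stressed R6 arrays, against 11.60 to 11.64 on non-stressed ones. It was 8.80 to 9.33 on stressed R7 arrays and 10.50 to 10.54 on non-stressed R7 arrays, and the order turned at R8, with 9.68 to 9.78 on stressed and 7.14 to 7.73 on non-stressed arrays. Of 6 green tissue markers 2 had a probe set, with a mean of 5.90 to 6.06 on stressed R6 arrays, against 7.32 to 7.40 on non-stressed ones. At R7 it was 5.42 to 5.76 on stressed and 5.08 to 5.13 on non-stressed arrays, and at R8 4.30 to 4.41 on stressed and 4.47 to 4.66 on non-stressed arrays. The part of RNA quality or of tissue make-up in the values of the members was not tested.

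The members followed different courses in the 2 environments. In stressed seeds the median of their group means was 4.33 at R6, 3.30 at R7 and 5.29 at R8. In non-stressed seeds it was 2.60 at R6, 5.12 at R7 and 5.16 at R8. Over all 19194 probe sets the median stayed between 4.52 and 4.64 in every condition. By this median the members were low in non-stressed R6 seeds and near the level of mature seed at R7, whereas in stressed seeds their median lay between these levels at R6, was lower at R7 and highest at R8.

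**Figure D1:**
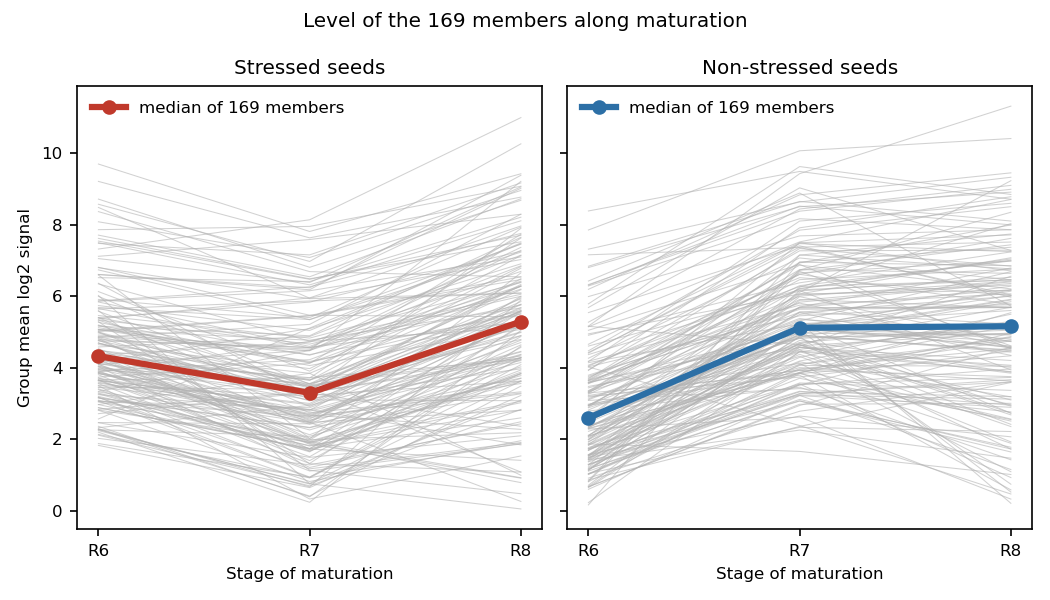
Group mean log2 signal of the 169 members (grey lines) at R6, R7 and R8, in stressed seeds on the left and in non-stressed seeds on the right, with the median over members in colour. The stressed median runs 4.33, 3.30 and 5.29 and the non-stressed median 2.60, 5.12 and 5.16.

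These differences are what chose the members, and they are given as a description. Stressed minus non-stressed seeds had a median of 1.43 at R6 (1.2025 to 4.03), -1.79 at R7 (-4.94 to -1.2025) and 0.09 at R8 (-1.64 to 1.14). Of all 19194 probe sets, 5.37% met the limit at R6, 8.62% the limit at R7 and 95.5% the limit at R8. Among the 18088 without a gene name, 939 met the R6 limit and 1578 the R7 limit, and 183 met both, which is 19.5% of the first and 11.6% of the second. The mirrored limits, lower at R6, higher at R7 and not lower at R8, were met by 68 unnamed probe sets.

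For 155 members whose non-stressed mean increased by more than 1 between R6 and R7, the stressed means could be placed on that step. Stressed R6 seeds stood at a median of 61.7% of it, and stressed R7 seeds at 22.3%. The stressed R6 mean lay above the non-stressed R7 mean in 30 of the 169 members (17.8%, against 45.7% of all probe sets). The stressed R7 mean lay below the non-stressed R6 mean in 52 (30.8%, against 47.9%), and below the stressed R6 mean in 144 (85.2%, against 49.0%). These positions and counts use the group means that the R6 and R7 limits compared, and they are description only.

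The stressed R6 and R7 arrays differed among themselves in the level of the members. The median over members was 4.77, 4.65 and 3.69 on stressed R6 replicates 1, 2 and 3, against 2.90, 2.51 and 2.48 on the non-stressed R6 arrays. At R7 it was 2.73, 3.31 and 3.87 on the stressed arrays, against 5.12 and 5.24 on the non-stressed arrays. At R8 it was 5.39, 5.31 and 5.25 on the stressed arrays, against 5.20 and 5.09 on the non-stressed arrays. The stressed arrays were clear of the non-stressed ones at R6 and at R7, and at R8 all 5 arrays lay within a narrow range.

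Stressed R6 replicate 3 gave the lowest of 3 signals in 153 of the 169 members (90.5%), against 43.1% of all probe sets. Among stressed R7 arrays, replicate 1 gave the lowest signal in 148 members (87.6%, against 46.7% of all) and replicate 3 the highest in 155 (91.7%, against 40.8%). The standard deviation between replicates had a median over members of 0.68 in stressed R6 and 0.56 in stressed R7 seeds, where over all probe sets it was 0.21 in both. It was 0.11 in stressed R8, 0.25 in non-stressed R6, 0.18 in non-stressed R7 and 0.16 in non-stressed R8 seeds. Over all probe sets it was 0.09, 0.13, 0.17 and 0.12 in these 4 conditions. The members thus varied most between samples in stressed R6 and R7 seeds, and so did all probe sets, though by less. In these 2 conditions most members had the same lowest array, while in stressed R8 seeds no array was lowest in more than 46.2% of them. The means of the same stressed R6 and R7 arrays chose the members, so that these spreads and orders are description only.

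**Figure D2:**
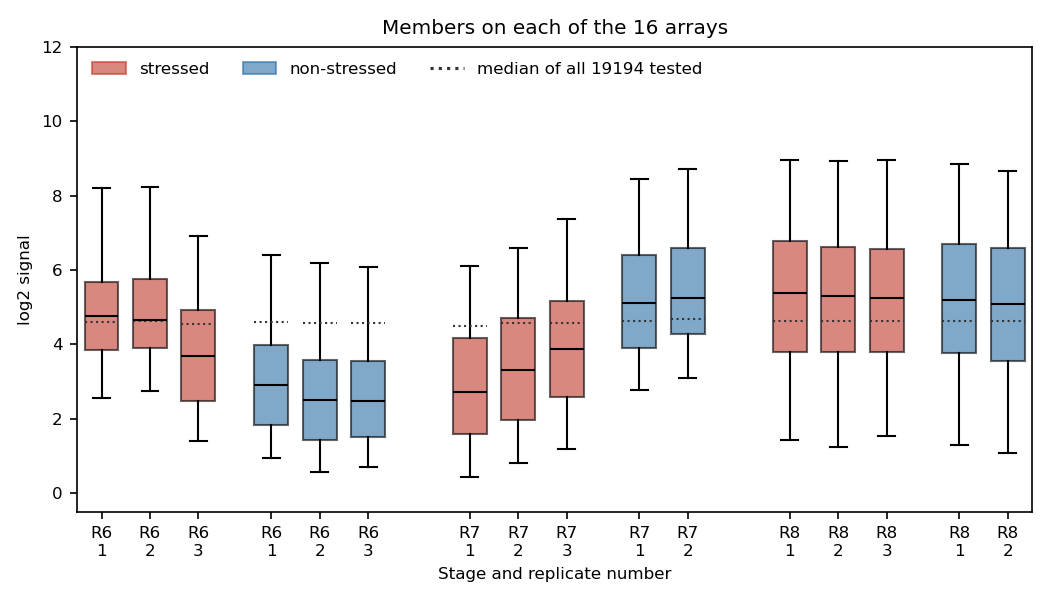
Log2 signals of the 169 members on each of the 16 arrays, by stage and replicate, with stressed arrays (red) left of non-stressed arrays (blue) at each stage. Boxes span the quartiles with a line at the median, whiskers reach the 5th and 95th percentiles, and dotted lines mark the median of all 19194 probe sets. Stressed R6 replicate 3 has a median of 3.69, against 4.77 and 4.65 on the other stressed R6 arrays.

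Membership rested on single arrays to a large extent. With stressed R6 replicate 3 left out 418 probe sets met the limits, among them 166 of the 169 members, and the median difference of the members at R6 was 1.90. Leaving out stressed R6 replicate 1 left 109 probe sets, and leaving out replicate 2 left 101. The R7 limit was kept by 162 members without non-stressed R7 replicate 1 and by 149 without replicate 2. No member changed its direction at R7 in these runs, and at R6 without replicate 3 only GmaAffx.89896.1.S1_at did, at -0.09.

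At R6 every stressed array lay above every non-stressed array in 132 of the 169 members, where 25.5% of all probe sets did so. At R7 every stressed array lay below every non-stressed array in all 169 members, where 35.3% of all probe sets did so. Without stressed R6 replicate 3 the count at R6 was 168. Both counts use the contrasts that chose the members, and nothing further is read from them.

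By the order of the 3 stage means, the members fell into a few courses. In stressed seeds 129 (76.3%) were lowest at R7, 24 went up at each step, 15 went down at each step and 1 was highest at R7. In non-stressed seeds 83 went up at each step, 83 were highest at R7 and 3 went down at each step. Of all probe sets, 23.5% were lowest at R7 in stressed seeds. In non-stressed seeds 22.7% of all were highest at R7 and 31.7% went up at each step, against 49.1% of the members for each. The most common pair of courses was lowest at R7 under stress with a steady increase without it (69 members, 40.8%, against 9.27% of all probe sets). Next came lowest at R7 under stress with a maximum at R7 without it (58 members, 34.3%, against 4.67%). The R6 and R7 limits compared the same group means that define these courses. Those limits favour a dip at R7 under stress and an increase to R7 without it. The shares of the members beside those of all probe sets are therefore description only. No reference used here gives a function for any of the locus numbers, and none is assigned below.

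Of the 69 members lowest at R7 under stress and steadily higher without it, 13 were paired with a locus number. LOC100810685 had log2 signals of 6.04, 6.09 and 4.93 in stressed R6 seeds, against 2.98, 2.20 and 2.46 in non-stressed R6 seeds. At R7 it had 5.08, 5.19 and 5.78 in stressed seeds, against 7.46 and 7.53 in non-stressed seeds, and at R8 it had 7.56, 7.43 and 7.39 against 7.88 and 7.56. Its stressed mean was thus 8.82-fold higher at R6 and 4.44-fold lower at R7, with no overlap of arrays at either stage and an overlap at R8. LOC100819812, annotated as a long non-coding RNA, had 5.01, 5.18 and 5.36 in stressed R6 seeds and 2.89, 2.51 and 2.10 in non-stressed R6 seeds on the probe set GmaAffx.4211.1.S1_at. On that probe set stressed R7 seeds had 3.20, 3.67 and 3.66, and non-stressed R7 seeds 5.54 and 5.44. Here replicate 3 was not low, so that the 3 stressed R6 arrays lay within a range much smaller than the difference.

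LOC100792600 and LOC100809323 gave low signals and a wider spread. LOC100792600 had 3.88, 3.64 and 2.00 in stressed R6 seeds, against 1.88, 0.85 and 1.18 in non-stressed R6 seeds. Its stressed R7 signals were 0.59, 0.77 and 1.46, against 3.01 and 3.54 without stress. The lowest stressed R6 array was thus just above the highest non-stressed one. LOC100809323 had 3.31, 3.60 and 1.74 in stressed R6 seeds and 1.04, 1.29 and 0.72 in non-stressed R6 seeds, with replicate 3 low again. It stood at 5.579, 5.503 and 5.636 in stressed R8 seeds, against 5.15 and 4.60 in non-stressed R8 seeds. LOC100816984, one of the strongest signals, had 9.01, 8.90 and 7.82 in stressed R6 seeds, against 7.93, 7.20 and 6.83 in non-stressed R6 seeds, so that replicate 3 overlapped, and its R7 difference was -1.66. LOC100780723 was at background in non-stressed R6 seeds and at least 2.003-fold higher in stressed R6 seeds, with an R7 difference of -1.70. LOC100801276, LOC100786020, LOC100526917, LOC100500135 and LOC100788038 had differences of 1.24 to 1.83 at R6 and of -2.14 to -1.34 at R7.

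Among the 58 members that were lowest at R7 under stress and highest at R7 without it, 10 were paired. LOC100792143 had 6.54, 6.43 and 4.78 in stressed R6 seeds, against 3.97, 3.65 and 3.46 in non-stressed R6 seeds. At R7 it had 4.80, 5.27 and 6.14 in stressed seeds, against 7.26 and 7.41 in non-stressed seeds. At R8 its stressed arrays, at 7.85, 7.99 and 7.96, were again above the non-stressed ones at 6.93 and 6.76. LOC100814726, among the stronger signals, had 9.36, 9.47 and 7.33 in stressed R6 seeds, against 7.05, 6.56 and 6.92 in non-stressed R6 seeds. In stressed R7 seeds it had 6.01, 6.84 and 7.59, against 8.53 and 8.78 in non-stressed R7 seeds. Its stressed R6 replicate 3 lay nearer to the non-stressed arrays than to its own replicates. LOC100794263, LOC100784200, LOC100305979, LOC100799536 and LOC100814494 had differences of 1.23 to 1.90 at R6 and of -2.06 to -1.53 at R7.

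The unpaired members with the largest sum of R6 excess and R7 deficit and no overlap at either stage were mostly of these 2 courses. GmaAffx.93024.1.S1_at had 5.19, 5.49 and 3.59 in stressed R6 seeds, against 0.96, 0.81 and 0.67 in non-stressed R6 seeds, which is the level of the background, measured on probe sets for other organisms. Taking that background level (1.02) for the non-stressed seeds, the stressed signal was at least 13.3-fold higher. At R7 this probe set had 4.01, 4.72 and 4.98 in stressed seeds and 6.59 and 6.81 in non-stressed seeds. GmaAffx.16846.1.A1_at had the largest difference of all members at R6, 4.03, with 6.02, 5.99 and 4.73 in stressed seeds against 1.85, 1.46 and 1.34 in non-stressed seeds. GmaAffx.76722.1.S1_at had 7.56, 7.53 and 5.13 in stressed R6 seeds, against 3.27, 2.81 and 2.62 in non-stressed R6 seeds. All 3 were far above the non-stressed arrays at R6, with replicate 3 lowest each time.

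GmaAffx.8086.1.S1_at, GmaAffx.28963.1.A1_at and GmaAffx.87317.1.S1_at had the larger deficits at R7, with differences of -3.48, -2.86 and -2.79. GmaAffx.8086.1.S1_at had 2.17, 2.40 and 3.13 in stressed R7 seeds, against 6.24 and 5.84 in non-stressed R7 seeds. GmaAffx.56498.1.S1_at and GmaAffx.68007.1.S1_at had the larger excess at R6, with differences of 3.54 and 3.42, and R7 differences of -1.95 and -1.90. The largest sum of all belonged to GmaAffx.85753.1.S1_at, singled out after its values were seen because its R6 arrays overlap. It had 5.92, 5.91 and 2.63 in stressed R6 seeds, against 3.98, 2.81 and 3.26 in non-stressed R6 seeds. Its stressed R7 signals of 2.01, 1.19 and 2.85 were 30.7-fold below the non-stressed signals of 7.17 and 6.74, the largest deficit at R7 among the members.

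In 14 members the signal went up at each step in both environments, and the stressed seeds began higher and advanced less to R7. LOC100791734 had 4.77, 4.68 and 5.11 at R6, 4.59, 5.25 and 5.80 at R7, and 8.24, 8.43 and 8.22 at R8 in stressed seeds. In non-stressed seeds it had 1.66, 2.08 and 2.51 at R6, 6.67 and 6.81 at R7, and 8.50 and 8.21 at R8. The environments were thus apart at R6 and R7 and overlapped at R8. GmaAffx.18096.1.S1_at had 4.16, 4.12 and 2.71 in stressed R6 seeds, against 1.58, 0.52 and 0.41 in non-stressed R6 seeds. At R7 it had 3.01, 3.53 and 4.60 in stressed seeds, 10.8-fold below the 7.10 and 7.20 of non-stressed seeds. GmaAffx.30652.1.S1_at had 2.45, 2.24 and 3.01 in stressed R6 seeds, against -0.02, 0.32 and 0.18 in non-stressed R6 seeds. At least a 2.92-fold excess follows for this probe set when the background level stands for the non-stressed seeds, in which it was at background.

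In a pair of members of this course replicate 3 was far above the other stressed R6 arrays. GmaAffx.89896.1.S1_at had 1.80, 2.00 and 6.21 in stressed R6 seeds, against 1.88, 2.08 and 2.03 in non-stressed R6 seeds. GmaAffx.5942.1.S1_at had 1.91, 2.15 and 4.45 in stressed R6 seeds, against 1.48, 1.37 and 1.52 in non-stressed R6 seeds. Their differences at R6 were -0.09 and 0.57 without that array, so that the first had no excess left, while the other 2 stressed arrays of the second were still above the non-stressed ones. Gma.17533.2.S1_at (LOC100800837), named here after its values were seen, also missed the limit at R6 without replicate 3, with a difference of 1.06. On these 3 probe sets replicate 3 was high, where on most members it was low.

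In 14 members the signal went down at each step in stressed seeds and peaked at R7 in non-stressed seeds. LOC100306591 had 5.06, 5.14 and 4.12 in stressed R6 seeds, against 2.27, 1.78 and 2.07 in non-stressed R6 seeds. At R7 it had 1.81, 2.69 and 2.92 in stressed seeds, against 5.37 and 5.16 in non-stressed seeds, and at R8 all 5 arrays were between 0.17 and 0.38. The stressed R6 arrays were thus near the level of the non-stressed R7 arrays, except replicate 3, and both environments ended at background. GmaAffx.17832.1.S1_at had 5.87, 5.51 and 4.49 in stressed R6 seeds, against 1.501, 1.214 and 1.134 in non-stressed R6 seeds, a 16.1-fold higher mean. In stressed R7 seeds it had 1.16, 1.11 and 1.67, and in non-stressed R7 seeds 3.01 and 3.44. Its peak in non-stressed seeds was therefore lower than the stressed signal at R6.

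Gma.2389.1.S1_at had 6.14, 6.25 and 5.68 in stressed R6 seeds, against 2.13, 2.50 and 2.22 in non-stressed R6 seeds, and its stressed R7 mean was at background. LOC100796466 had 4.60, 4.57 and 4.14 in stressed R6 seeds, against 3.42, 2.96 and 3.29 in non-stressed R6 seeds. At R7 it had 1.57, 1.58 and 2.02 in stressed seeds, against 4.37 and 3.88 in non-stressed seeds. Both gave narrow groups with no overlap at R6 or R7. LOC100527247 of the same course did overlap at R6, with 3.58, 4.03 and 2.14 in stressed seeds against 1.59, 1.60 and 2.42 in non-stressed seeds.

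In 10 members, 4 of them paired, the stressed signal went up at each step and the non-stressed signal peaked at R7. LOC547845 had 4.85, 4.62 and 3.04 in stressed R6 seeds, against 2.77, 2.45 and 2.63 in non-stressed R6 seeds. At R7 it had 4.40, 5.04 and 5.85 in stressed seeds, against 7.05 and 7.26 in non-stressed seeds. LOC100500648 had 4.07, 3.81 and 3.76 in stressed R6 seeds, against 1.42, 1.37 and 1.06 in non-stressed R6 seeds. The excess of LOC100500648 at R6 was even across replicates, while that of LOC547845 was small on replicate 3. The remaining 4 members followed other courses. Both probe sets of the name stem Gma.2759 went down at each step without stress, GmaAffx.93256.1.S1_at went down in both environments, and Gma.10150.1.A1_at peaked at R7 in both.

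**Figure D3:**
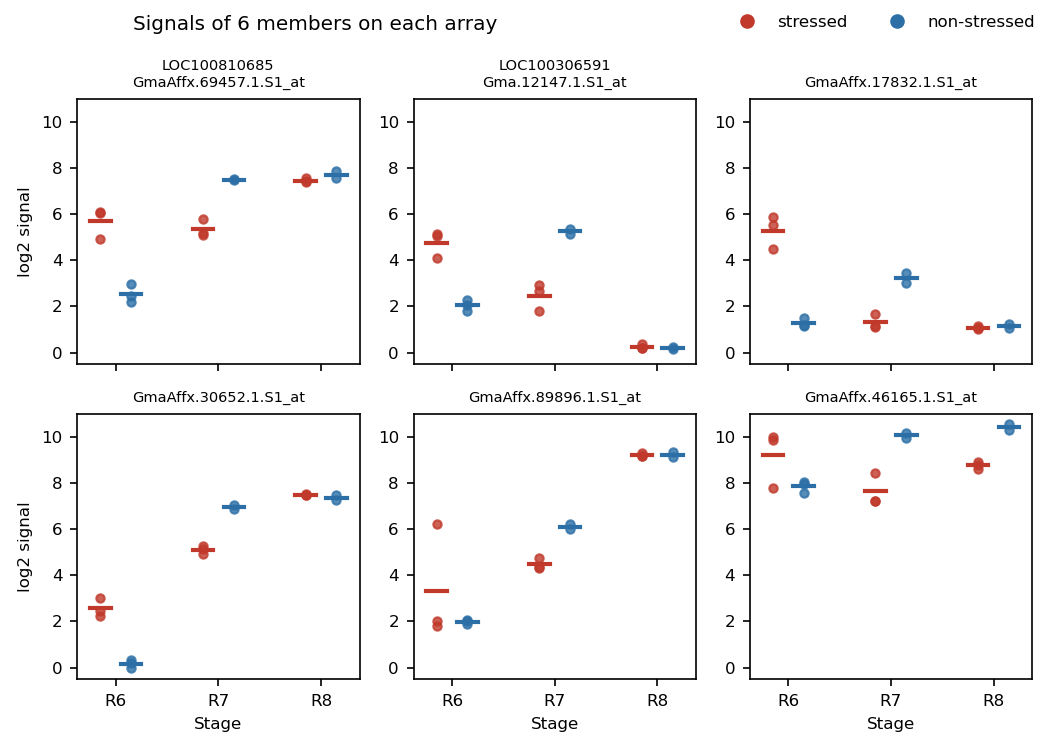
Log2 signals of 6 members at R6, R7 and R8 on each array (points) with the group mean (bar), stressed in red at the left and non-stressed in blue at the right of each stage. LOC100810685 and GmaAffx.30652.1.S1_at increase to R8, and LOC100306591 and GmaAffx.17832.1.S1_at decline to or close to background. The excess of GmaAffx.89896.1.S1_at at R6 comes from 1 array at 6.21, and GmaAffx.46165.1.S1_at stays lower in stressed seeds at R8.

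The members are not 169 independent transcripts. They carry 163 different name stems, with 6 stems represented by 2 probe sets each, and 3 genes were seen by 2 members each. The 2 probe sets of LOC100813031 had R6 differences of 1.44 and 1.26 and R7 differences of -1.96 and -2.06, and those of LOC100788840 had 2.05 and 1.41 at R6 and -1.44 and -1.59 at R7. The 2 of LOC100819812 had 2.69 and 1.23 at R6 and -1.98 and -2.05 at R7. Among the 6 stem pairs, the 2 probe sets of GmaAffx.90284 had R6 differences of 1.87 and 1.99 and R7 differences of -2.01 and -1.2025. Repeated probe sets thus shared their direction, as the rule requires, but not always their size. A further 13 probe sets of 9 of the paired genes did not meet the limits, 12 of which passed the filter, and 9 of these 12 were above 0 at R6 and below 0 at R7. Some of the 9 were large, such as Gma.11140.1.S1_at of LOC100792600 with 1.17 and -1.47. Others were close to 0 at R7, with -0.02 for GmaAffx.93382.1.S1_at of LOC100816984 and -0.10 for Gma.18004.1.A1_at of LOC100780723. The latter had a highest group mean of 7.98, against 3.01 for the member. The count of signs is therefore not read further. The remaining 3 of the 12 were above 0 at R7. For LOC100784200 these were both other probe sets, with -0.53 and 0.49 at R6 and 0.55 and 0.64 at R7, against 1.90 and -1.54 for the member. For LOC100305979 it was GmaAffx.7208.1.S1_at, with -0.65 at R6 and 0.64 at R7, against 1.59 and -1.84 for the member, which was opposite at both stages. Of the 31 genes 30 are annotated as protein coding in the Glycine_max_v4.0 assembly, and no 2 of them lie within 10 genes of each other. Names starting with GmaAffx made up 67.5% of the members and 47.2% of all probe sets tested.

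Most members were of middling signal. The mean over all 16 arrays exceeded 3 in 128 of them (75.7%, against 77.5% of all probe sets). It ranged from 1.69 for Gma.2759.2.S1_a_at to 8.90 for Gma.10729.1.S1_s_at. All 6 conditions were above 3 in 59 members (34.9%), against 56.1% of all probe sets. The non-stressed R6 mean was at or below background in 15 members (8.88%, against 2.70% of all probe sets). The stressed R7 mean was so in 15 (8.88%, against 4.07%). For these members only a difference taken from the background level is a lower bound. Taken so, 9 of the 15 kept the R6 limit and 14 of the 15 the R7 limit. GmaAffx.87466.1.S1_at was at background in both of these conditions, and was at least 2.41-fold higher in stressed seeds at R6 and at least 17.5-fold lower at R7. Its stressed R6 replicate 3, at 0.41, was below all 3 non-stressed R6 arrays, and without it the excess was at least 4.63-fold.

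At the limits the members were not set apart from their neighbours. The 3 members nearest to the R6 limit, Gma.2759.1.S1_at, GmaAffx.50946.1.S1_at and GmaAffx.9717.1.A1_at, had differences of 1.2025, 1.2025 and 1.2027, and the 3 probe sets nearest outside it, GmaAffx.17564.1.S1_at, GmaAffx.77036.1.S1_at and Gma.7026.1.S1_at, had 1.1987, 1.1964 and 1.1945. At R7 the nearest members, GmaAffx.90284.1.S1_s_at, GmaAffx.80311.1.S1_at and Gma.7294.1.S1_at, had -1.2025, -1.2051 and -1.2052, and the nearest outside, GmaAffx.89795.1.S1_s_at, GmaAffx.38425.1.S1_at and Gma.3524.1.S1_at, had -1.1987, -1.1962 and -1.1955. The R8 limit left out 14 unnamed probe sets, of which Gma.13340.1.S1_at, Gma.4167.2.S1_a_at and GmaAffx.6565.1.A1_at were nearest with 1.2011, 1.2305 and 1.2404.

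At R8 the rule bounded the stressed excess only from above. The difference lay within 0.5 of 0 in 116 members (68.6%), where 69.0% of all probe sets did so. Every stressed R8 array was above every non-stressed one in 55 members, against 31.5% of all probe sets, and below in 46, against 35.7%. The arrays overlapped in the other 68. The members as a group were thus about as close between environments at R8 as probe sets in general.

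GmaAffx.46165.1.S1_at had the largest deficit at R8. It had 8.80, 8.92 and 8.60 in stressed R8 seeds, against 10.29 and 10.55 in non-stressed R8 seeds, a difference of -1.64. Its stressed R6 signals were 10.005, 9.859 and 7.785, against 7.58, 7.95 and 8.04 in non-stressed R6 seeds, so that the R6 arrays overlapped through replicate 3. GmaAffx.35134.1.S1_at, GmaAffx.87317.1.S1_at, Gma.6742.1.A1_at and GmaAffx.83619.1.S1_at followed, with R8 differences of -1.47, -1.18, -1.08 and -0.92. At the other end GmaAffx.66861.1.S1_at had 3.86, 3.81 and 3.81 in stressed R8 seeds, against 3.17 and 2.20 in non-stressed R8 seeds. GmaAffx.16846.1.A1_at, LOC100792143, LOC100787752 and Gma.10729.2.S1_at had R8 differences of 1.13, 1.09, 1.01 and 0.99.

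The change between stages over both environments was not itself a limit of the rule and was tested, though it uses the same group means. Stage means weighted each environment by its number of arrays. Where both environments have the same spread, this keeps their error apart from that of the stress difference. The members did not meet that condition, with a median standard deviation of 0.68 in stressed and 0.25 in non-stressed R6 seeds, and 0.56 and 0.18 at R7. The choice of the members can therefore move their R6 and R7 stage means, by an amount that was not tested. Tests used limma with Benjamini-Hochberg adjustment over the 19194 probe sets, and a call needed both an adjusted p no higher than 0.05 and a log2 difference of 1 or more in size. Such a mean over 2 environments need not describe either of them. From R6 to R7, 141 of the 169 members had a lower mean at R7 in stressed seeds and a higher one in non-stressed seeds. From R7 to R8 the median change of the members was 1.83 in stressed and -0.05 in non-stressed seeds.

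From R6 to R7, 48 members rose, where 17.3% of all probe sets did, and 10 fell, where 19.7% did. These are 28.4% and 5.92% of the members, with a median difference of 0.43 beside 0.09 over all probe sets. From R7 to R8, 88 members (52.1%) rose, where 16.2% of all did, and 12 (7.10%) fell, where 16% did, with a median of 1.10 beside -0.02. From R6 to R8, 113 members (66.9%) rose, where 29.9% of all did, and 17 (10.1%) fell, where 28.9% did, with a median of 1.49 beside 0.12. Members that rose were thus more frequent than among all probe sets in each comparison, and 32 members (18.9%) were called in none of the 3, where 33% of all probe sets were. The rule chose members with low stressed R7 means beside non-stressed ones, and these enter the R7 stage mean. Shares of the members beside those of all probe sets in these comparisons are therefore description only. With the array medians set equal, the median of all probe sets from R6 to R7 shifted by 0.30, and 91.9% of the called members had risen, against 82.8% with the deposited values. Over all probe sets that share was 62.9%, against 46.8%.

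A probe set could pass the filter through 1 high condition, so the counts were also taken over the 128 members with a mean above 3 over all arrays. Of these, 45 rose and 4 fell from R6 to R7, 75 rose and 2 fell from R7 to R8, and 98 rose and 5 fell from R6 to R8. Among the 14871 probe sets with such a mean, the shares that rose were 18.9%, 14.1% and 29.9%, and those that fell 14.2%, 16.1% and 24.0%. The most frequent combination among all members was no call from R6 to R7 with a rise from R7 to R8 and from R6 to R8, in 57 members (33.7%, against 10.1% of all probe sets). A rise in all 3 comparisons was found in 28 (16.6%, against 3.83%).

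**Figure D4:**
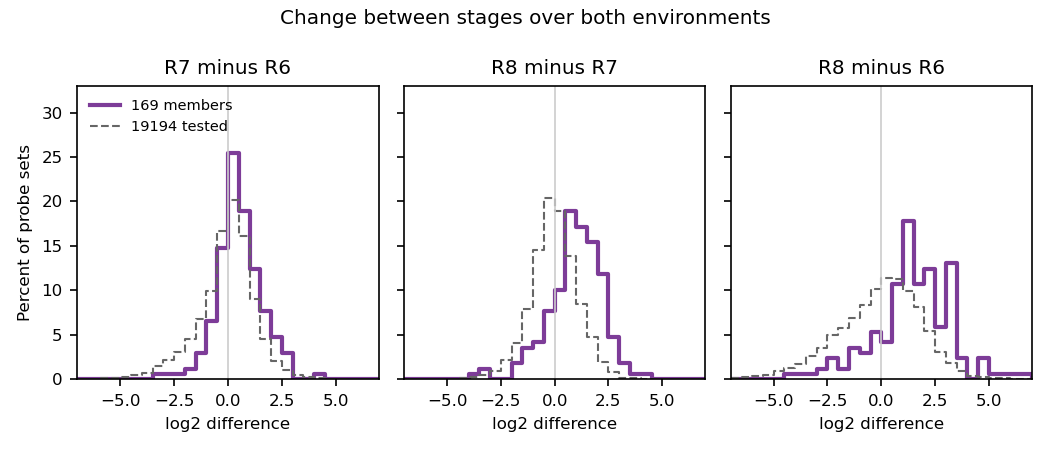
Percent of the 169 members (solid) and of all 19194 probe sets (dashed) by log2 difference between stages, over both environments, in bins of 0.5. The median of the members is 0.43 for R7 minus R6, 1.10 for R8 minus R7 and 1.49 for R8 minus R6.

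GmaAffx.30652.1.S1_at had the largest rise from R6 to R7, by 4.49 ± 0.13 (standard error of the fit, limma adjusted p = 1.53e-12). Since its non-stressed R6 mean was at background, the rise is at least 4.06 from the background level. Next came LOC100500648 (2.66) and GmaAffx.79175.1.S1_at (2.54), and GmaAffx.18096.1.S1_at and GmaAffx.93024.1.S1_at with at least 2.75 and 2.53 from the background level. The largest fall was that of GmaAffx.93256.1.S1_at, at -3.18 ± 0.16 (limma adjusted p = 3.44e-10). Its signals were 5.68, 5.85 and 5.27 at R6 and 1.02, 1.43 and 0.93 at R7 in stressed seeds, and 4.26, 3.87 and 3.94 at R6 and 2.76 and 2.00 at R7 in non-stressed seeds, so that it went down in both environments. GmaAffx.68007.1.S1_at (-2.10) and Gma.2759.1.S1_at (-1.97) fell as well, and so did Gma.2389.1.S1_at and Gma.2759.2.S1_a_at, whose stressed R7 means were at background (-2.49 and -1.41 at the background level).

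From R7 to R8 the largest rise was that of GmaAffx.89896.1.S1_at, by 4.09 ± 0.61 (limma adjusted p = 3.53e-05). It had 9.19, 9.28 and 9.18 in stressed R8 seeds and 9.13 and 9.34 in non-stressed R8 seeds, and from R6 to R8 it rose by 6.56, the most of all members. GmaAffx.5942.1.S1_at rose by 3.46. GmaAffx.87466.1.S1_at, Gma.10053.1.S1_at and GmaAffx.79265.1.S1_at, whose stressed R7 means were at background, rose by at least 3.33, 2.73 and 2.61 from the background level. The members with the largest fitted falls from R7 to R8 were at background in mature seed in at least 1 environment, so that their falls are given down to the background level. Taken so they were -3.31 for Gma.10150.1.A1_at, -2.57 for LOC100306591, -2.95 for GmaAffx.85114.1.S1_s_at, -1.66 for GmaAffx.21596.1.S1_at and -1.54 for Gma.6926.1.S1_at. In mature seed these 5 members had group means between 0.21 and 1.08, at background or close to it.

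From R6 to R8, GmaAffx.30652.1.S1_at rose by 6.08 ± 0.13 (limma adjusted p = 2.68e-14) and by at least 5.65 from the background level, and in mature seed it had 7.49, 7.48 and 7.51 under stress and 7.46 and 7.28 without it. GmaAffx.5942.1.S1_at rose by 5.81, GmaAffx.79175.1.S1_at by 4.99 and GmaAffx.18096.1.S1_at by at least 5.33 from the background level. Among the 5 largest fitted falls 4 ended at background in both environments, and down to the background level they were -3.79 for GmaAffx.93256.1.S1_at, -3.13 for Gma.2389.1.S1_at, -2.62 for GmaAffx.21596.1.S1_at and -2.39 for LOC100306591. LOC100796466, which stayed above background, fell by 2.55. LOC100791734 rose in all 3 comparisons, by 2.35, 2.50 and 4.85.

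Known maturation genes gave a scale for these changes, in the same tests. SGR1 and SGR2, stay-green proteins that take part in chlorophyll breakdown, rose from R6 to R7 by 1.97 and 1.51 (limma adjusted p = 9.16e-11 and 1.89e-07) and neither was called from R7 to R8. Of 26 probe sets of late embryogenesis abundant and maturation proteins, 6 rose and 1 fell from R6 to R7, none rose and 1 fell from R7 to R8, and 6 rose and 1 fell from R6 to R8. Their median differences were 0.63, 0.03 and 0.58. PM29, the member of that list with the largest rise, gained 1.84 from R6 to R7. Of 8 storage protein probe sets, 6 fell from R6 to R7, 3 from R7 to R8 and 7 from R6 to R8, with a median of -3.06 over the whole interval and none that rose. By their median over both environments the unnamed members gained more from R7 to R8 than from R6 to R7, while the maturation proteins changed little on median from R7 to R8. Within environments the median of the members from R7 to R8 was 1.83 in stressed but -0.05 in non-stressed seeds. In non-stressed seeds they gained from R6 to R7, by a median of 2.43. The rule chose low stressed R7 means, so that no timing beside the maturation proteins is read from this.

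The same limits were met by 9 probe sets of named genes, which the rule left out, among the 1106 tested. Of these, 5 were paired with NAC genes, of which 22 probe sets were tested. The NAC26 probe set and the one paired with more than 1 NAC gene share a name stem, so that the 5 are not independent. Their number is not read as a result about the family. NAC proteins are plant transcription factors with known roles in senescence and stress. NAC12 averaged 4.99 in stressed R6 and 3.37 in stressed R7 seeds, against 1.05 in non-stressed R6 and 5.47 in non-stressed R7 seeds. NAC19 averaged 5.496 and 5.872 in stressed R6 and R7 seeds, against 3.651 and 7.072 in non-stressed R6 and R7 seeds. Its R7 difference of -1.2001 was only just inside the limit. NAC26 had a difference of 2.23 at R6 and -1.29 at R7. CYP93A1, a cytochrome P450 of the synthesis of pterocarpan defence compounds, had 1.89 and -2.03 at these stages. NAC51, CYP82A3, another cytochrome P450, and MYB184, of the MYB family of transcription factors, had non-stressed R6 means at background. From the background level their stressed R6 means were at least 1.77-fold, 1.28-fold and 2.08-fold higher, and their R7 differences were -1.28, -2.29 and -2.26. As log2 differences from that level the R6 values were 0.82, 0.36 and 1.06, short of the limit of 1.2. The other 2 probe sets, 1 of them of NAC genes, were paired with more than 1 gene and are not named.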

How the data were processed

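RNA of whole seeds was hybridized to Affymetrix Soybean Genome arrays, of which 16 were analysed. The authors deposited log2 signals, with 1 value per probe set and array, made by RMA per the labels (background correction, normalization between arrays and summary of the spots), through ArrayAnalysis.org by the methods. Its version is not given in the sources used here, and the signals were used unchanged and ran from -0.83 to 13.3. Differences between low signals depend on the background removal. Other organisms' probe sets gave the background, and 1.02 was their highest 95th percentile on any array. Tests used the deposited signals. For values given as at least, from or down to the background level, a group mean at or below it was set to it. Arrays have no depth, and 2 or 3 arrays per condition limit the precision.

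Members were found from group means by the limits given in the report, at the signal filter of the study's methods (above 3). The members and the gene lists were chosen with earlier results of these data known. Genes were assigned to probe sets from the platform annotation and RefSeq genes of Glycine_max_v4.0, by gene identifier, and all 31 genes matched. Stressed minus non-stressed differences chose the members and carry no test. Stage comparisons were fitted with limma 3.58.1 in R 4.3.3, with 1 mean per condition over all 16 arrays, two-sided, and stage means weighted by the number of arrays. The p-values measure only the spread between these samples, each a pool of seeds. The fit was tested on simulated arrays.

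Members named are, among the paired ones, the 30 with the largest sum of R6 excess and R7 deficit. To these were added the 12 unpaired ones with the largest sum and no overlap at R6 or R7, those nearest each limit, the 5 lowest and 5 highest at R8, the 5 largest rises and falls in each stage comparison, the highest and lowest mean, genes seen by several members and named genes left out by the rule. Any other is marked as chosen after its values were seen. The main fit did not pair the samples by the replicate numbers in the labels. Deviations of same-numbered arrays correlated between -0.22 and 0.37, above 0.1 in 3 of 7 pairs. With 2 non-stressed arrays at R7 and at R8, whose deviations mirror each other, these correlations cannot exclude a pairing. Alternatives were other filters, limits and normalizations, equal weights for the environments, trend and robust settings, array weights, a replicate block, no fold limit and each array left out. No promoter or protein sequence was used here.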

Additional observations from a re-analysis of the deposited data

How the results depend on the processing

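The number of members depended on the limits and on single arrays. It was 318 with a difference limit of 1.0, 57 with 1.5 and 368 with group medians in place of means, and with 1 array left out it ran from 101 (without stressed R6 replicate 2) to 418 (without stressed R6 replicate 3). Without a signal filter it was 173, after a further quantile normalization 162 and with array medians set equal 154. The median R8 difference of the members ran from -0.0001 (without non-stressed R8 replicate 2) to 0.18 (without non-stressed R8 replicate 1), around 0.09 with all arrays, so that it has no settled sign.

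With the members held fixed, the counts from R7 to R8 and from R6 to R8 kept within 1.5 times of 88, 12, 113 and 17 under every alternative but one, the 19 members lower at R8 than at R7 with no fold limit. From R6 to R7, 77 members rose and 18 fell with no fold limit, against 48 and 10, and 6 fell with array medians set equal. With 1 array left out the number that fell from R6 to R7 ran from 6 (without stressed R7 replicate 1) to 16 (without non-stressed R7 replicate 2), and the number that rose from 34 to 69. With the replicate number as a block (replicate block), 47 members rose and 10 fell from R6 to R7, 88 rose and 12 fell from R7 to R8, and 113 rose and 17 fell from R6 to R8. This changed no count by 1.5 times. The 30 results for single members in the stage comparisons kept their direction and their call under all 25 alternatives.

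Runs added after seeing the data left out stressed R6 replicate 3, stressed R7 replicate 1 or a non-stressed R7 array. Members lowest at R7 in stressed seeds then numbered 119 to 134, members highest at R7 in non-stressed seeds 77 to 86, and members with separate arrays at R6 132 to 168. The cause of these dependences was not tested. Signals near the background of 1.02 limit 15 members at non-stressed R6 and 15 at stressed R7.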
